A study of Homo sapiens with 7 samples.

Results

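The proteasome genes of MCF-10A cells were compared between cells carrying a hairpin against Brit1 and cells carrying a scrambled hairpin. Members were all genes whose symbol begins with PSMA to PSMG and a number, a pattern that takes in the core particle, the regulatory particle, the activators, the inhibitor and the assembly chaperones. The pattern matched 48 of the 19304 named genes, with 62 of 48701 probes. Of these, 44 genes encode subunits, chaperones, activators or the inhibitor, and 4 are pseudogenes or genes of interacting proteins. Detection on at least 3 of the 7 arrays was required for a test, which 46 of the 48 genes passed, among them 42 of the 44 proteasome genes. PSMA8 and PSMB11, forms of core subunits known from testis and thymus, were not detected on any array and were not tested. Expression of PSMC5, PSMD7, PSMD13 and PSMG4 was not analysed here, and the promoter counts below include constitutive subunits with no expression value.

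MCF-10A is a non-transformed human mammary epithelial line. The shBrit1 group (4 arrays) carried a short hairpin RNA against Brit1, a gene of the DNA damage response, delivered by lentiviral particles and selected for stable knockdown, and the shControl group (3 arrays) carried a scrambled hairpin. Both were harvested 48 h after seeding. The submitters call the samples biological replicates. Nothing says whether they came from separate infections, so p-values measure the spread between these samples. The targeted gene was not analysed here, and the groups rest on the labels.

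The proteasome degrades proteins that have been tagged with ubiquitin. Its 20S core is a barrel of alpha and beta rings, with 3 beta subunits that cut proteins, and its 19S regulatory particle binds, unfolds and feeds in the substrates. After interferon, PSMB8, PSMB9 and PSMB10 replace PSMB5, PSMB6 and PSMB7 in newly built cores, giving the immunoproteasome, and PSME1 and PSME2 form the PA28 activator that caps it. The products of immunoproteasomes are a source of peptides for class I antigen presentation.

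Promoter sequences of the 5 interferon-inducible members are shown because these genes did not move together although 4 of them hold the same kind of interferon motif. The sequences come from RefSeq (GRCh38.p14), run from 100 bases before to 29 bases after the annotated start, and are written 5′ to 3′ on the gene's strand. Capitals mark matches to the interferon-stimulated response element, searched as GAAA, any 2 bases and GAAA, and to the gamma-activated site, searched as TTCNNNGAA, both on either strand. PSMB8 has 2 annotated starts, and both are given.
PSMB8, chr6:32844018-32844147, minus strand: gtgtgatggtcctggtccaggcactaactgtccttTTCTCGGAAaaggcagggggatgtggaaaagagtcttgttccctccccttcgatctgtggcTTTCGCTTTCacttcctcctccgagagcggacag
PSMB8, chr6:32844650-32844779, minus strand: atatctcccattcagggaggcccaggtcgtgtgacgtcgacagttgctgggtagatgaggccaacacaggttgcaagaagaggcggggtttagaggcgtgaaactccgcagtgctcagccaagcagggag
PSMB9, chr6:32854092-32854221, plus strand: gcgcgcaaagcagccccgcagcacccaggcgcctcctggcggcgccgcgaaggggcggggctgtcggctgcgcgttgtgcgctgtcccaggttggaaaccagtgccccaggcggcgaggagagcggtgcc
PSMB10, chr16:67936821-67936950, minus strand: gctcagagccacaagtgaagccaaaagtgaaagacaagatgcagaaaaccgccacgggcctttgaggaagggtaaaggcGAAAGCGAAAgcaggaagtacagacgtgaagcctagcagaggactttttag
PSME1, chr14:24136094-24136223, plus strand: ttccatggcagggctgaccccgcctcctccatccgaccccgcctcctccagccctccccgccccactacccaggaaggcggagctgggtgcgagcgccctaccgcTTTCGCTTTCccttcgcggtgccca
PSME2, chr14:24146581-24146710, minus strand: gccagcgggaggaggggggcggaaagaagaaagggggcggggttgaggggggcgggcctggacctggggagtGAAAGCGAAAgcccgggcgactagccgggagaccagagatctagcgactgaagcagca

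Over the full 300-base windows, which begin 250 bases before the start, 3.57% of 35116 annotated promoters hold the response element and 7.66% hold the gamma-activated site. The response element is in 4 of the 6 windows of the inducible members and in 2 of 32 windows of the constitutive subunits. Those 2 are windows of PSMA4 and PSMB4. The gamma-activated site is in 1 of the 6 windows of the inducible members and in 5 of 32 of the constitutive subunits. The core of the antioxidant response element, the kind of site that NFE2L1 is known to bind, was searched as TGACNNNGC on both strands. It is in 13.3% of all windows, in 3 of 6 windows of the inducible members and in 7 of 32 of the constitutive subunits. Of the tested constitutive subunits, 16 of the 18 that were lower in shBrit1 and 7 of those that were not have windows, some more than 1. The antioxidant element core is in 5 of 19 windows of the lower ones and in 1 of 9 windows of the others. Tested subunits without a window are left out of this split. The 3 motifs were searched without regard to overlap with each other. A match describes letters in a window, not a binding site.

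The arrays give 1 intensity per probe. After background correction and quantile normalization the values are on a log2 scale, and every level and difference below is on it unless a fold is given. Among the 12372 genes that were tested, the shBrit1 arrays were higher for 29.5% and lower for 30.1%, at an adjusted p under 0.05 (limma with Benjamini-Hochberg adjustment over all 17967 probes tested). Between 16537 and 17343 probes were detected per array, and the number of arrays limits the precision. shControl replicate 3 stood apart from the other controls, with an SD across probes of 0.531 and 0.510 against them, where the other pairs of arrays within a group lay between 0.161 and 0.228. All 6 basal epithelial markers with a named probe, such as KRT5 and KRT14, were detected on all arrays, as were 3 of 4 luminal markers, and PGR was detected on no array. The summed linear level of the basal markers was 22328 to 24062 in shBrit1 and 29845 to 58144 in shControl. KRT14 was lower by a log2 difference of -1.72 and KRT5 by -0.66. DSG3 was higher by 0.92, and CDH1, EGFR and LAMB3 were not called. The summed level of the luminal markers was 846 to 998 in shBrit1 and 295 to 721 in shControl, with GATA3 higher by 2.48. ESR1 and KRT18 were not called. The summed linear level of 5 immune markers was 1829 to 2298 on the shBrit1 arrays and 542 to 574 on the shControl arrays, through CD68 and CD14, while CD3E was detected on no array and PTPRC on 1 shControl array. The summed level of 5 fibroblast markers was 6218 to 6851 in shBrit1 and 240.4 to 311 in shControl, mostly through DCN (235 to 254 and 136 to 186 without it), and PDGFRB and LUM were detected on no array. The part of these in the results below was not tested. In bulk RNA, fewer cells expressing a gene and less RNA per cell cannot be told apart.

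The constitutive proteasome was mostly lower in shBrit1. Of 28 constitutive subunit genes of the core and the regulatory particle, 18 were lower, 1 was higher and 9 did not pass the test, against 30.1% lower and 29.5% higher among all genes. Their median log2 difference was -0.58, against -0.01 over all genes. Falls were moderate in most members: 4 of the 28 were at least 2-fold lower, PSMD2, PSMD1, PSMD11 and PSMD14, all of the regulatory particle, against 9.69% of all genes. Groups did not overlap for 18 constitutive genes that were lower and for 2 that were higher, against 31.2% and 30.6% of all genes. Of the 5 inducible members, 2 were higher (PSMB8 and PSME1), 0 were lower and 3 did not pass the test, against the same shares of all genes, and the difference from the constitutive subunits was not tested. Their median of 0.35 is the value of PSMB9, which was near background in shControl, and lay at 0.22 without shControl replicate 1 or without background correction and at 0.66 over the genes detected on all arrays. PSMB8 and PSME1 were at least 2-fold higher, as were 9.76% of all genes. The plot of log2 differences by role shows both.

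**Figure D1:**
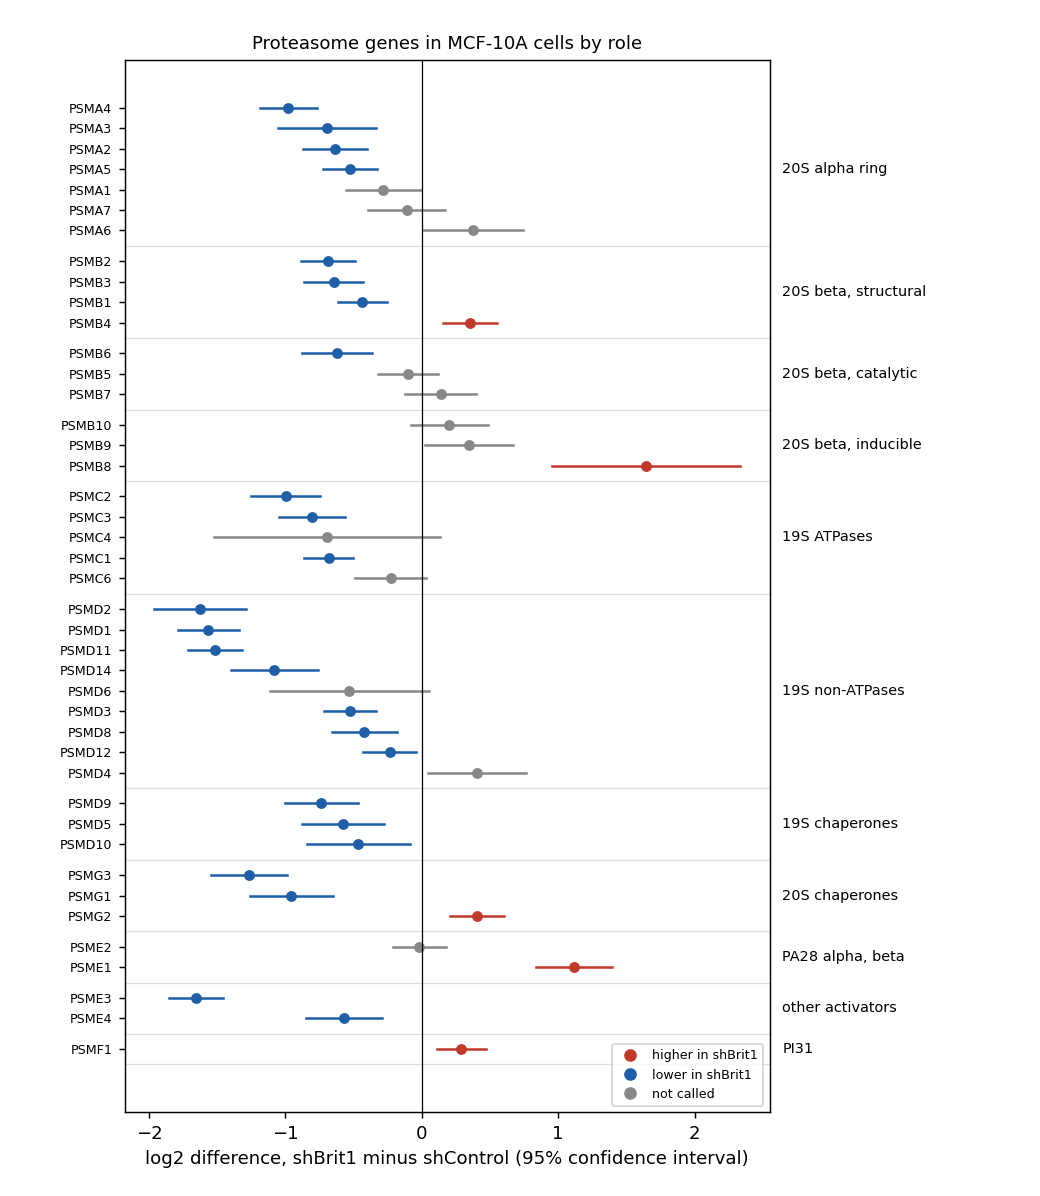
Log2 difference (shBrit1 minus shControl) of the 42 tested proteasome genes with its 95% confidence interval from limma, ordered by role and coloured by call. Most core and regulatory subunits lie left of 0, with PSMD2 at -1.63 and PSME3 at -1.66, and PSMB8 at 1.65 and PSME1 at 1.12 lie farthest right.

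The products of the alpha ring genes form the outer rings and gate the core. Of these genes, 4 of 7 were lower and 0 higher, against 30.1% and 29.5% of all genes. PSMA4 measured 10.23, 10.25, 10.16 and 10.14 on the shBrit1 arrays, against 11.12, 11.32 and 11.08 on the shControl arrays. All shBrit1 values lay below all shControl values, a 1.97-fold fall (log2 difference -0.98, SE 0.09, limma adjusted p = 3.19e-05). PSMA7 measured 11.66, 11.61, 11.59 and 11.51 in shBrit1, against 11.92, 11.78 and 11.42 in shControl. Here the groups overlapped, with shControl replicate 3 below every shBrit1 array (log2 difference -0.11, SE 0.12). A dimmer second probe of PSMA7 was called lower, at a log2 difference of -0.46. PSMA2, PSMA3 and PSMA5 were lower by log2 differences of -0.64, -0.70 and -0.52. PSMA1 and PSMA6 did not pass the test, at -0.28 and 0.38. PSMA6 stood at 0.16 without shControl replicate 3 and was called higher at 0.48 without shControl replicate 1 (limma adjusted p = 0.0473). On shControl replicate 3, PSMA3 and PSMA6 stood 0.63 and 0.64 below the mean of the other controls, as the heat map of all arrays shows.

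The structural beta subunits complete the inner rings without cutting proteins. Of these, 3 of 4 were lower and 1 was higher, against 30.1% and 29.5% of all genes. PSMB2 measured 11.46, 11.48, 11.50 and 11.35 on the shBrit1 arrays, against 12.22, 12.14 and 12.05 on the shControl arrays. The groups were well apart, with shBrit1 1.61-fold lower (log2 difference -0.69, SE 0.09, limma adjusted p = 0.000187). PSMB3 and PSMB1 were also lower, at -0.65 and -0.44, although cyclic loess normalization ended the call for PSMB1 (-0.19, limma adjusted p = 0.0739). PSMB4 went the other way, with 12.77, 12.87, 12.81 and 12.76 in shBrit1, against 12.56, 12.42 and 12.37 in shControl. It was 1.28-fold higher (log2 difference 0.35, SE 0.09, limma adjusted p = 0.00767), and with median scaling in place of quantile normalization it was no longer called (0.078, adjusted p = 0.581).

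The 3 constitutive cutting subunits did not share a direction. PSMB6, which carries the caspase-like activity, measured 11.72, 11.46, 11.52 and 11.46 on the shBrit1 arrays, against 11.97, 12.21 and 12.30 on the shControl arrays. It was 1.54-fold lower with no overlap (log2 difference -0.62, SE 0.11, limma adjusted p = 0.00147). PSMB5, of the chymotrypsin-like activity, measured 11.96, 11.84, 11.87 and 12.01 in shBrit1, against 12.09, 12.10 and 11.87 in shControl. PSMB7, of the trypsin-like activity, measured 12.88, 12.82, 12.86 and 12.78 in shBrit1, against 12.61, 12.52 and 12.96 in shControl. In both the groups overlapped through shControl replicate 3, and neither passed the test (log2 differences -0.10 and 0.14, limma adjusted p = 0.405 and 0.351). With median scaling PSMB5 was called lower (-0.43, adjusted p = 0.0159), and without shControl replicate 3 PSMB7 was called higher (0.27, adjusted p = 0.0162).

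Of the 3 inducible cutting subunits, PSMB8 was called higher. PSMB8, which takes the place of PSMB5, measured 10.09, 9.78, 9.94 and 9.77 on the shBrit1 arrays, against 7.79, 7.81 and 9.15 on the shControl arrays. Every shBrit1 value lay above every shControl value, and shControl replicate 3 lay between the other controls and shBrit1. The fold was 3.13 (log2 difference 1.65, SE 0.30, limma adjusted p = 0.00164), and 4.21 without shControl replicate 3. A second PSMB8 probe measured 8.75, 8.34, 8.27 and 8.38 in shBrit1, against 6.92, 6.998 and 6.92 in shControl. On that probe shControl replicate 3 did not stand apart, and the log2 difference was 1.49 (SE 0.12, limma adjusted p = 1.43e-05). The sources used here do not say which transcripts each probe detects.

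PSMB9, the inducible counterpart of PSMB6, was dim, detected on 4 of 4 shBrit1 arrays and on 1 of 3 shControl arrays. It passed the filter only through shBrit1, so its values are a description. It measured 5.37, 5.35, 5.41 and 5.52 on the shBrit1 arrays, against 4.80, 4.98 and 5.41 on the shControl arrays, and shControl replicate 3 lay among the shBrit1 values. The log2 difference was 0.35 (SE 0.14, limma adjusted p = 0.0674). Without that array it was 0.52 (adjusted p = 0.000484), against 2 shControl arrays on which the probe was not detected, and with cyclic loess it was 0.38 (adjusted p = 0.0496). PSMB10, the counterpart of PSMB7, measured 11.81, 11.52, 11.64 and 11.52 in shBrit1, against 11.38, 11.24 and 11.64 in shControl. It did not pass the test (log2 difference 0.20, SE 0.12, limma adjusted p = 0.202). Without shControl replicate 3 it was called at 0.31 (adjusted p = 0.0226), while median scaling turned it to -0.16 (adjusted p = 0.282).

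**Figure D2:**
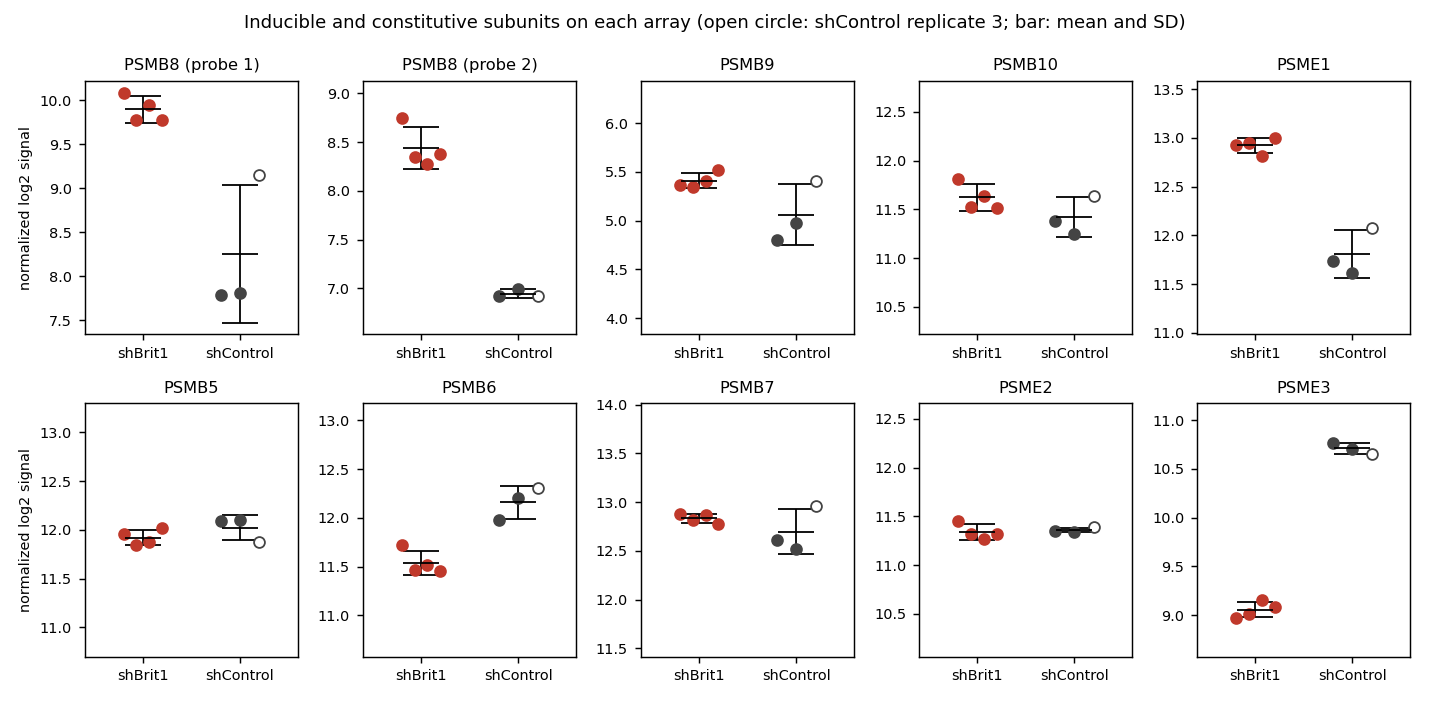
Normalized log2 signal of inducible and constitutive members on each array, 4 shBrit1 and 3 shControl, with mean and SD; the open circle is shControl replicate 3 and the vertical range differs between panels. PSMB8 probe 1 places shControl replicate 3 at 9.15 between the groups, PSMB8 probe 2 places it at 6.92 with the other controls, and PSME2 lies between 11.27 and 11.46 on all arrays.

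To set each inducible subunit against the one it replaces, the difference of their log2 values was taken on every array and its change compared between groups. Levels of different probes were not compared. Relative to the shControl mean, PSMB8 minus PSMB5 stood at 1.91, 1.71, 1.84 and 1.53 on the shBrit1 arrays, against -0.53, -0.52 and 1.05 on the shControl arrays. PSMB9 minus PSMB6 stood at 0.75, 0.98, 0.99 and 1.16 in shBrit1, against -0.07, -0.13 and 0.21 in shControl. Both ratios were higher on every shBrit1 array than on every shControl array, the second partly through the fall of PSMB6. The changes were 1.75 (SE 0.53) and 0.97 (SE 0.13), each with p = 0.0571 by a two-sided exact permutation test over the 35 splits of the arrays, the smallest value this design allows, and 0.0857 after adjustment over the 3 pairs. PSMB10 minus PSMB7 changed by 0.06 (SE 0.06, exact permutation p = 0.400, adjusted p = 0.400), and the groups overlapped. PSMB9 minus PSMB6 rests on PSMB9, which passed the filter only through shBrit1 and was not detected on 2 of the 3 shControl arrays. The size of this ratio is thus set against background, and its test is given as a description only. No pair passes a threshold of 0.05 in this design.

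**Figure D3:**
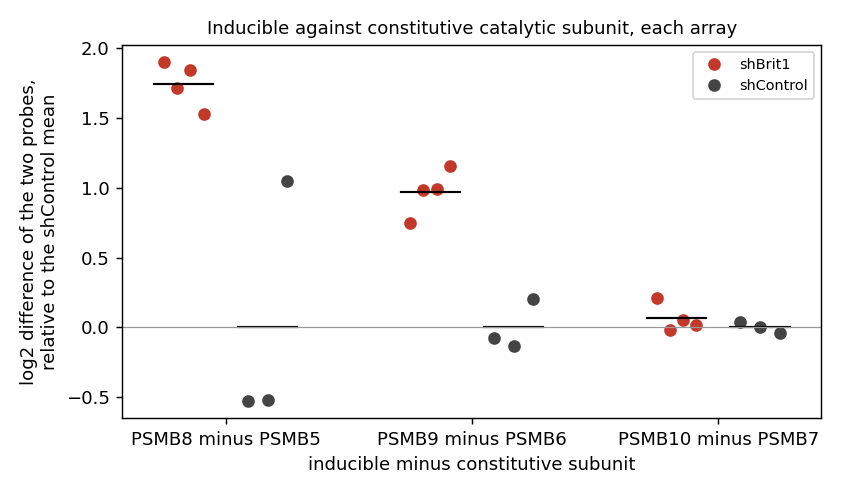
Log2 value of each inducible subunit minus that of the constitutive subunit it replaces, on each array, relative to the shControl mean; the line is the group mean (4 shBrit1 and 3 shControl arrays). PSMB8 minus PSMB5 averages 1.75 and PSMB9 minus PSMB6 averages 0.97 in shBrit1, while PSMB10 minus PSMB7 stays near 0 in both groups.

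The 19S ATPases unfold the substrate and open the gate of the core. Of 5 tested, 3 were lower and 0 higher, against 30.1% and 29.5% of all genes. PSMC2 measured 11.17, 11.07, 11.08 and 11.17 on the shBrit1 arrays, against 12.26, 12.22 and 11.88 on the shControl arrays, just under a 2-fold fall, with no overlap (SE 0.11 on the log2 scale, limma adjusted p = 8.18e-05). PSMC3 and PSMC1 were lower by log2 differences of -0.81 and -0.68, and a second PSMC1 probe gave -0.70. PSMC6 measured 11.04, 11.03, 11.15 and 11.09 in shBrit1, against 11.47, 11.40 and 11.05 in shControl, and did not pass the test (-0.23, adjusted p = 0.127). PSMC4, chosen for mention after its values were seen, measured 8.03, 7.59, 7.61 and 8.03 in shBrit1, against 9.10, 8.99 and 7.44 in shControl. Its lowest array was thus shControl replicate 3, and the gene was not called on all arrays (-0.70, adjusted p = 0.142) but was called at -1.22 without that one (adjusted p = 1.44e-05).

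The other 19S subunits form its scaffold and lid and include ubiquitin receptors and the deubiquitinase PSMD14. Of 9 tested, 7 were lower and 0 higher, against 30.1% and 29.5% of all genes. PSMD2, a scaffold subunit of the base, measured 10.56, 10.64, 10.49 and 10.46 on the shBrit1 arrays, against 11.99, 11.95 and 12.55 on the shControl arrays. The groups were more than 1 log2 unit apart, with shBrit1 3.08-fold lower (log2 difference -1.63, SE 0.15, limma adjusted p = 2.55e-05). PSMD1, the other large scaffold subunit, averaged 9.45 ± 0.04 in shBrit1 (SD, n = 4) and 11.02 ± 0.17 in shControl (SD, n = 3), a 2.96-fold fall. PSMD11, a lid subunit, averaged 6.26 ± 0.08 in shBrit1 (SD, n = 4) and 7.78 ± 0.07 in shControl (SD, n = 3), a 2.86-fold fall. PSMD14 fell 2.12-fold, with means of 11.08 ± 0.12 in shBrit1 and 12.17 ± 0.28 in shControl. These 4 genes were called lower in every alternative run, and the smallest of their differences was -1.003, for PSMD14 without shControl replicate 1.

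Within the same particle the remaining members changed less. PSMD3 and PSMD8 were lower by log2 differences of -0.53 and -0.42, the call for PSMD8 being lost with a replicate block (-0.39, adjusted p = 0.0582). PSMD12 measured 14.41, 14.45, 14.40 and 14.51 on the shBrit1 arrays, against 14.66, 14.78 and 14.60 on the shControl arrays. The groups did not overlap, but the difference was small (-0.23, SE 0.09, limma adjusted p = 0.0452) and stayed under 0.05 in 7 of 16 alternatives. The ubiquitin receptor PSMD4 did not pass the test at 0.40 (adjusted p = 0.0581), and was called higher in 5 of 16 alternatives. It stood at 0.57 without shControl replicate 1 (limma adjusted p = 0.0093) and at 0.21 without shControl replicate 3 (limma adjusted p = 0.103). PSMD6, a lid subunit, was not called on all arrays (-0.53, adjusted p = 0.114) and its shControl replicate 3 value lay below the mean of the other controls, by a difference of -1.15. Without that array its log2 difference was -0.91 (adjusted p = 3.26e-06).

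Among the members, chaperones that build the proteasome were lower except PSMG2. All 3 member chaperones of the 19S base were called lower, against 30.1% of all genes. PAAF1, another base chaperone, counted in the partner lists, was 1.45-fold higher (log2 difference 0.53, limma adjusted p = 0.0331). Its shControl replicate 3 value lay at -0.77 from the mean of the other controls. PSMD9 measured 7.10, 7.04, 7.03 and 7.18 on the shBrit1 arrays, against 7.65, 7.75 and 8.09 on the shControl arrays (log2 difference -0.74, SE 0.12, limma adjusted p = 0.000710). PSMD5 was lower by -0.58. PSMD10, also known as gankyrin, measured 10.40, 10.62, 10.45 and 10.66 in shBrit1, against 11.28, 11.12 and 10.58 in shControl. Its groups overlapped through shControl replicate 3, and its call (-0.47, adjusted p = 0.0398) held in 9 of 16 alternatives.

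Chaperones of the core split. PSMG3 measured 7.28, 6.997, 7.01 and 6.81 on the shBrit1 arrays, against 8.18, 8.29 and 8.41 on the shControl arrays, a 2.41-fold fall with no overlap (log2 difference -1.27, SE 0.12, limma adjusted p = 3.45e-05). PSMG1, which pairs with PSMG2 to line up the alpha ring, was 1.94-fold lower (log2 difference -0.96), and a second probe gave -0.97. PSMG2 itself measured 12.57, 12.68, 12.55 and 12.71 in shBrit1, against 12.25, 12.15 and 12.27 in shControl. It was 1.32-fold higher (log2 difference 0.40, SE 0.09, limma adjusted p = 0.00393), a call lost with median scaling (0.11, adjusted p = 0.448). Both partners of one heterodimer thus went opposite ways with quantile normalization.

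The activators cap the core in place of the 19S particle, and their genes diverged. PSME1, the alpha subunit of PA28, measured 12.93, 12.95, 12.82 and 13.003 on the shBrit1 arrays, against 11.73, 11.61 and 12.08 on the shControl arrays. It was 2.17-fold higher with no overlap (log2 difference 1.12, SE 0.12, limma adjusted p = 7.59e-05), and a second, dimmer probe gave 0.70. PSME2, the beta subunit of the same ring, measured 11.46, 11.32, 11.27 and 11.32 in shBrit1, against 11.35, 11.34 and 11.39 in shControl. Its groups overlapped, with a log2 difference of -0.02 (95% confidence interval -0.21 to 0.17, limma adjusted p = 0.869). With median scaling PSME2 was called lower (-0.39, adjusted p = 0.00968). Both genes lie on chromosome 14 with 1 coding gene, EMC9, between them in RefSeq, and both hold the response element shown above.

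PSME3, the nuclear PA28 gamma activator, was among the proteasome genes with the largest falls, beside PSMD2. It measured 8.98, 9.01, 9.15 and 9.08 on the shBrit1 arrays, against 10.77, 10.71 and 10.65 on the shControl arrays. The groups were more than 1 log2 unit apart, and the fall was 3.15-fold (log2 difference -1.66, SE 0.09, limma adjusted p = 1.24e-06). PSME4, also called PA200 and known for histone turnover, measured 10.94, 11.07, 11.09 and 10.91 in shBrit1, against 11.46, 11.42 and 11.85 in shControl, and was 1.49-fold lower (limma adjusted p = 0.00369). PSMF1, the inhibitor PI31, measured 11.75, 11.73, 11.77 and 11.69 in shBrit1, against 11.48, 11.40 and 11.46 in shControl. It was 1.22-fold higher (log2 difference 0.29, SE 0.08, limma adjusted p = 0.0131), but median scaling turned it to -0.062 (adjusted p = 0.642).

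**Figure D4:**
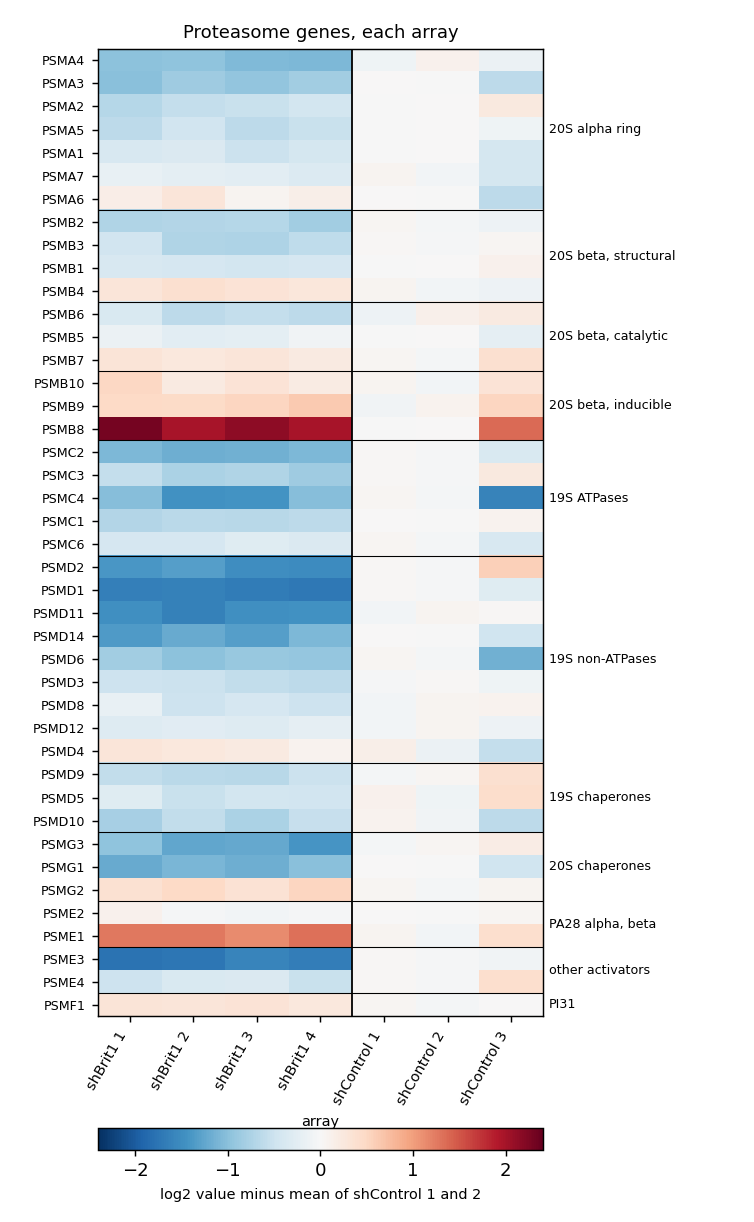
Log2 value of the 42 tested proteasome genes on each of the 7 arrays minus the mean of shControl replicates 1 and 2, by role (blue lower, red higher). The 4 shBrit1 columns resemble each other, and shControl replicate 3 departs in single genes, at -1.60 for PSMC4, -1.15 for PSMD6 and 1.35 for PSMB8.

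Departures of shControl replicate 3 from the other controls were counted in the members and in all genes. It lay over 0.5 log2 below the mean of the other controls in 5 of 28 constitutive genes and over 0.5 above in 1, against 11.1% and 12.9% of all genes. In the 5 inducible members it lay over 0.5 above that mean in 2 and over 0.5 below it in 0. It lay above the mean of the other controls by any amount in each of the 5, for the probes used. The median departure of the 5 was 0.41, against 0.03 over all genes. On the second probes of PSME1 and PSMB8 it lay below them, at -0.37 and -0.04. Without this array 23 of the 28 constitutive genes were lower and 2 higher, with PSMA1 (-0.42, adjusted p = 0.00128), PSMA7 (-0.26, adjusted p = 0.0245), PSMC6 (-0.35, adjusted p = 0.00353), PSMC4 and PSMD6 added to those lower, and 4 of the 5 inducible members were higher, PSME2 being the exception. Of those 4, PSMB9 passed the filter only through shBrit1 and was not detected on either remaining control, so its call is set against background. Calls over all genes were also more numerous without shControl replicate 3, at 4313 lower and 4250 higher, against 3718 and 3653 with all arrays.

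Other genes of the pathway were taken from 6 lists of partners. Of 47 tested, 18 were higher and 16 lower, against 29.5% and 30.1% of all genes, and with median scaling 6 were higher and 18 lower. Of 3 genes of ubiquitin and its activating enzymes, 2 were lower, with UBA6 measuring 9.45 ± 0.12 in shBrit1 (SD, n = 4) and 10.83 ± 0.21 in shControl (SD, n = 3), and UBA1, the main activating enzyme, 1.47-fold lower. The ubiquitin gene UBB did not pass the test at a log2 difference of 0.82 (adjusted p = 0.0935), with shControl replicate 3 at -1.72 from the mean of the other controls, and was called at 0.26 without it (adjusted p = 0.0236). Of 12 genes of proteasome-bound proteins, 5 were lower and 4 higher. The 2 deubiquitinases of the 19S particle besides PSMD14, USP14 and UCHL5, were 2.02-fold and 2.12-fold lower. POMP, which guides beta ring assembly, averaged 12.67 ± 0.06 in shBrit1 (SD, n = 4) and 13.42 ± 0.03 in shControl (SD, n = 3), a 1.68-fold fall, and AKIRIN2, a factor of proteasome import into the nucleus, was 1.33-fold higher, a call lost with median scaling (0.11, adjusted p = 0.551). Of 10 shuttle and p97 genes, 4 were lower and 2 higher, with VCP, the p97 segregase, 2.02-fold lower, its cofactor UFD1 2.17-fold lower, the shuttle RAD23B 1.44-fold lower, and UBXN1, another p97 cofactor, 2.13-fold higher.

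Among 9 regulators of the constitutive genes, 5 rose and 2 fell, against 29.5% and 30.1% of all genes. NFE2L1, the transcription factor known for raising constitutive proteasome genes when the proteasome is impaired, averaged 11.32 ± 0.11 on the shBrit1 arrays (SD, n = 4) and 9.57 ± 0.10 on the shControl arrays (SD, n = 3). It was 3.36-fold higher (log2 difference 1.75, SE 0.10, limma adjusted p = 1.73e-06), in the cells in which 18 of 28 constitutive subunits were lower, and at 1.42 or more in every alternative. NFE2L2, a relative that responds to oxidants, was 1.57-fold higher, a call lost with median scaling (0.30, adjusted p = 0.168). FOXO4, linked to PSMD11 in human stem cells, was 5.79-fold higher, and NFYA, a subunit of the CCAAT-binding factor, 1.63-fold lower. The arrays measure RNA, so the processing that activates the NFE2L1 protein is not seen here.

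Among 7 regulators of the inducible members, 5 rose and 1 fell, against 29.5% and 30.1% of all genes. IFNGR1, a chain of the interferon gamma receptor, was 4.19-fold higher, IRF9, of the type I interferon response, 3.39-fold, and IFNGR2 1.34-fold. IFNGR2 was not called with median scaling (0.096, adjusted p = 0.542). IRF2 was 1.28-fold higher at an adjusted p of 0.0428, a call lost with median scaling (0.34, adjusted p = 0.0777) and with no background correction (0.18, adjusted p = 0.0781). IRF1, an activator of PSMB8 and PSMB9, averaged 9.61 ± 0.13 in shBrit1 (SD, n = 4) and 8.74 ± 0.84 in shControl (SD, n = 3). Its groups overlapped, with shControl replicate 3 at 1.45 above the other controls. It was 1.83-fold higher (limma adjusted p = 0.0471), 2.54-fold without that array, and was called in 4 of 16 alternatives (adjusted p of 4.30e-07 to 0.165). JAK2, a kinase of the interferon gamma receptor, was the 1 that fell (-0.58, limma adjusted p = 0.0446). It was dim, at 5.51 to 5.96 on the shBrit1 arrays, against 6.12, 6.11 and 6.94 on the shControl arrays. The size of its fall thus rests partly on shControl replicate 3, which lay 0.83 above the mean of the other controls. The call for JAK2 was not followed through the alternatives. Of 6 antigen processing genes 2 were higher and 2 lower, against 29.5% and 30.1% of all genes. B2M, the class I light chain, was 2.69-fold higher, and CALR, a chaperone of class I assembly, 1.41-fold lower.

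On chromosome 6 the genes TAP2, PSMB8, TAP1 and PSMB9 are neighbours with no coding gene between them in RefSeq. TAP1 and TAP2 are the chains of the peptide transporter that receives proteasome products. TAP1 averaged 11.44 ± 0.05 on the shBrit1 arrays (SD, n = 4) and 10.55 ± 0.74 on the shControl arrays (SD, n = 3), 1.86-fold higher (limma adjusted p = 0.0251), with shControl replicate 3 at 1.28 above the other controls. It was 2.49-fold higher without that array, and was called in 8 of 16 alternatives (adjusted p of 1.29e-07 to 0.146), in none of those that left out another array. TAP2 averaged 8.39 ± 0.08 in shBrit1 (SD, n = 4) and 9.38 ± 0.18 in shControl (SD, n = 3), 1.99-fold lower (limma adjusted p = 6.89e-05), and a second TAP2 probe gave -0.53 (adjusted p = 0.120). With all arrays, the 4 neighbours held 2 genes that were called higher, 1 called lower and 1 that did not pass the test.

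**Figure D5:**
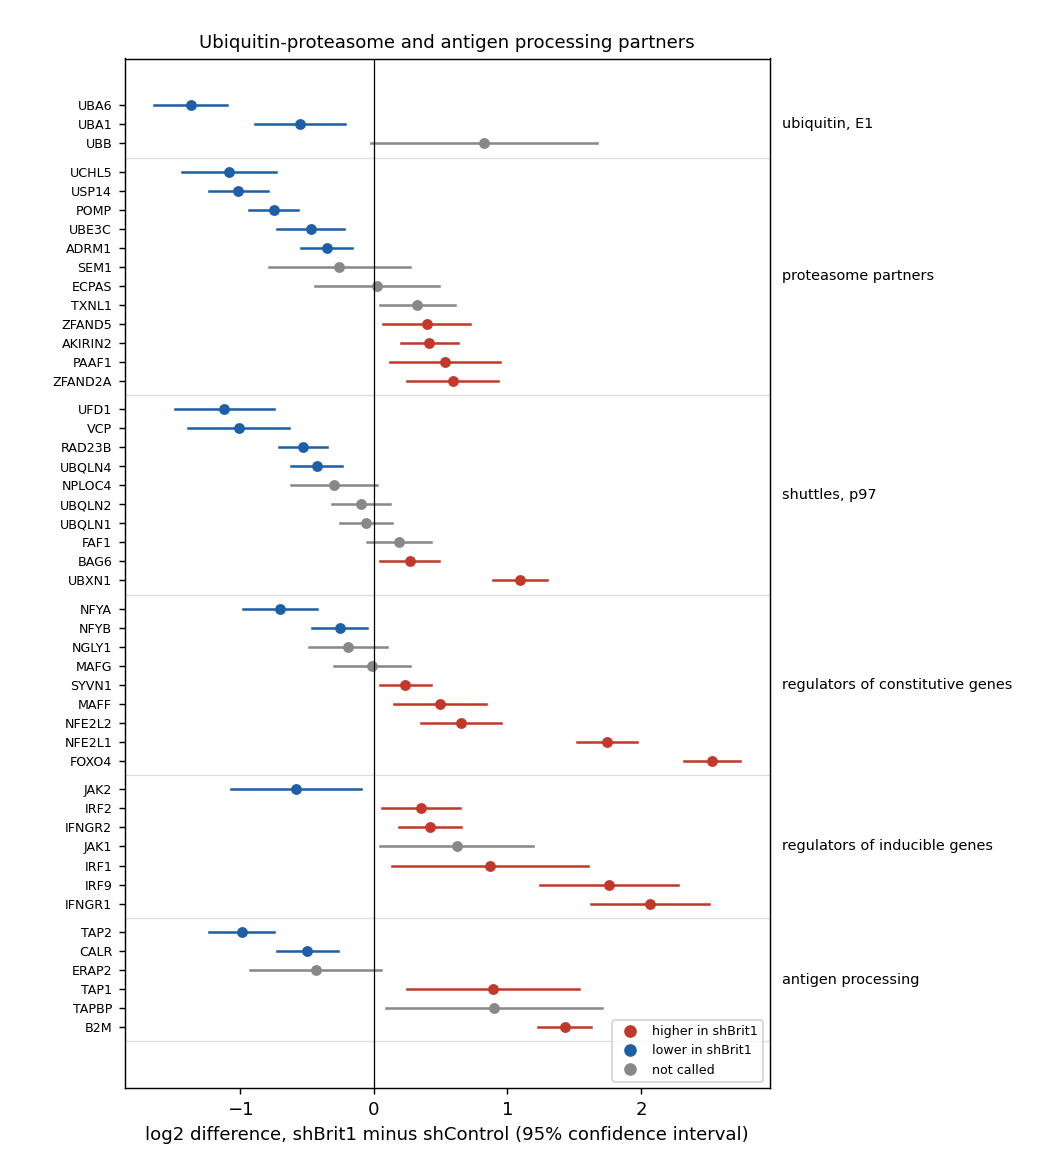
Log2 difference (shBrit1 minus shControl) of the 47 tested partner genes with its 95% confidence interval from limma, by list and coloured by call. FOXO4 at 2.53, IFNGR1 at 2.07, IRF9 at 1.76 and NFE2L1 at 1.75 lie farthest right, and UBA6 at -1.37 farthest left.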

How the data were processed

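RNA was labelled, per the labels' protocols, as biotinylated cRNA with the Illumina TotalPrep kit. The authors deposited linear intensity values with detection p-values (48701 probes, 7 arrays), not normalized between arrays, and quantile-normalized log2 values of the same arrays, which were used as an alternative only. The sources used here name neither the scanner software nor the tool behind the deposited log2 values. Probes were named from the platform annotation (24782 with 1 symbol, 23919 with none), and the RefSeq table of GRCh38.p14 changed 0 member names. Intensities were corrected for background and quantile-normalized by neqc (limma 3.58.1, R 4.3.3, offset 16), and probes with a detection p under 0.05 on at least 3 arrays were tested with lmFit and eBayes, two-sided. 1 probe per gene was used, that with the highest mean. Every member may be named. Values on each array are given for PSMB5 to PSMB10, PSME1 to PSME4 and, in each other role, the members with the largest and the smallest absolute log2 difference, and of each partner list up to 4 genes with the smallest p, with NFE2L1, IRF1, TAP1 and POMP named in any case. JAK2 and PAAF1 were named after their values were seen. The members, lists, motifs and tests were chosen with earlier results of these data known. The fit was tested on simulated data. Alternatives were other background corrections, median scaling, cyclic loess, the deposited log2 values, other filters, eBayes with trend, a replicate block, the second probe and leaving out each array. Of the 42 tested proteasome genes, 20 have a numbered pseudogene in RefSeq, among them PSMC1 and PSME2, and probes could bind such near-identical copies.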

Additional observations from a re-analysis of the deposited data

Results flagged for a closer look

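For PSMD11, shBrit1 replicate 2 stood apart from the other 3 shBrit1 arrays, at 6.15 where the next value was 6.29. All shBrit1 values were still far below the shControl values. This was 1 of 70 genes for which the lowest or highest shBrit1 array was set against the spread of the group of 4, and chance alone flags about 1 gene in 20.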

How the results depend on the processing

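Of the 27 members called lower, 23 kept the call in every alternative, as did 2 of the 5 called higher, PSMB8 and PSME1. Both counts of lower members include PSMC3IP and PSMC1P12, which are not part of the proteasome, and 25 proteasome genes were called lower. How many of all genes kept a call in every alternative was not counted. Median scaling moved the median of all genes to -0.15, from which the constitutive subunits stood at -0.69 (median -0.84, with 22 lower and 0 higher), and left 2 members higher, 6 partner genes higher and 1 inducible member lower (PSME2). Over all genes it gave 2625 higher and 4479 lower, against 3653 and 3718. The number of constitutive subunits called higher was 2 with no background correction and with normexp without negative controls. It was also 2 with the deposited log2 values and with a trend in eBayes. The runs with no background correction and with the deposited log2 values each gave 3690 higher and 3712 lower over all genes. They nearly repeat each other, but are counted as separate alternatives. The change of PSMB10 minus PSMB7 was -0.019 with median scaling and -0.0088 with cyclic loess. Median scaling also reversed PSMB7 (-0.14), PSMF1 (-0.062) and PSMB10 (-0.16), none of them called then. The cause was not tested. Leaving out each array in turn gave 5 to 8 members, 1 to 3 constitutive subunits, 2 to 4 inducible members and 10 to 21 partner genes higher, the highest of them without shControl replicate 3 except for the constitutive subunits, where it was without shControl replicate 1. It gave 17 to 23 constitutive subunits lower, against 3330 to 4313 of all genes, with 3258 to 4250 of all genes higher. Leaving out an array reversed PSMC1P9 (-0.84 to 0.048) and PSME2 (-0.058 to 0.0041). Deviations from the group means correlated by 0.097, -0.02 and 0.088 across probes between same-numbered replicates. Between replicates with unlike numbers the correlations ran from -0.09 to 0.098. These values do not settle whether the numbers pair the samples. With a replicate block 16 constitutive subunits were lower and 1 higher, and 2 inducible members and 12 partner genes were higher. Calls over all genes were also fewer with the block, at 3253 lower and 3216 higher, against 3718 and 3653 without it. In the same run PSMB8 minus PSMB5 changed by 1.82, PSMB9 minus PSMB6 by 0.91 and PSMB10 minus PSMB7 by 0.08. The 4 and 3 arrays limit all values, and PSMB9 was not detected on 2 of 3 shControl arrays.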

Other observations

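The symbol pattern also matched 4 genes that are not part of the proteasome. PSMC3IP, named for an interaction with PSMC3, measured 5.68, 5.48, 5.50 and 5.64 on the shBrit1 arrays, against 6.67, 6.75 and 5.91 on the shControl arrays (log2 difference -0.87, SE 0.19, limma adjusted p = 0.00420). Its groups did not overlap, although shControl replicate 3 lay close to shBrit1. PSME3IP1, a protein that binds PSME3, measured 9.32, 9.35, 9.33 and 9.27 in shBrit1, against 9.46, 9.49 and 9.23 in shControl, and did not pass the test (-0.08, adjusted p = 0.534), while PSME3 itself was 3.15-fold lower. The PSMC1 pseudogene PSMC1P12 was 2.16-fold lower (log2 difference -1.11), and PSMC1P9 was not called on all arrays (-0.29, adjusted p = 0.553). PSMC1P9 measured 9.88, 9.69, 9.75 and 9.89 in shBrit1, against 10.75, 10.55 and 8.96 in shControl, so its lowest array was shControl replicate 3, as for PSMC4, and without it the log2 difference was -0.84 (adjusted p = 1.73e-05). Its other 2 tested probes were also lowest on that array. Probes of such copies and of PSMC1 may bind each other's transcripts.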
